A study of Mus musculus with 7 samples.

Results

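The 38 genes described here encode proteins of mitosis and cytokinesis: mitotic kinases and their activators, the chromosomal passenger complex, spindle checkpoint and kinetochore proteins, spindle motors, and the machinery of the midzone and the cleavage furrow. They were chosen by name and by known function, with earlier results of these data known. All 38 were found by symbol among the 39017 gene identifiers counted. All of them passed the filter on low counts, which kept 15800 genes. The libraries come from livers of mouse embryos at stage E12.5, the main blood-forming organ at that age, in a study of TAF10, a subunit of the general transcription factor TFIID and of the coactivator SAGA, in red cell formation. Each library is total RNA of a single-cell suspension of whole fetal liver from the C57BL/6 strain.

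The 2 TAF10KO livers carried EpoCre and lox-flanked Taf10. By their titles they were lox/lox, but the text on the series describes them as lox over KO. All 3 TAF10HET livers also carried EpoCre. Their alleles were lox/wt in TAF10HET replicate 1 and wt/ko in TAF10HET replicates 2 and 3. The 2 WT livers were lox/lox without Cre, so the comparisons with WT differ in Cre as well as in Taf10. EpoCre is driven from the gene of the erythropoietin receptor and acts in erythroid cells, so other cells that carry lox alleles keep them. The ko allele of TAF10HET replicates 2 and 3, and of TAF10KO if lox over KO, does not depend on the Cre. Where the Cre acted was not tested. Each title also holds a code in the form of a date, whose meaning the labels do not state. The first date code covers replicate 1 of each genotype, and the second covers TAF10KO replicate 2, TAF10HET replicates 2 and 3 and WT replicate 2. Allele type in TAF10HET therefore cannot be told apart from date code. In bulk samples such as these, fewer cells of a type and less RNA per cell cannot be told apart.

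Mitosis starts when cyclin B binds and activates the kinase Cdk1 and Cdc25 phosphatases remove its inhibitory phosphates. Most genes of this group are transcribed in G2 and M phase, under the DREAM and B-Myb-MuvB complexes with FoxM1, which act through a promoter element called CHR and often through CCAAT boxes bound by NF-Y. In the fetal liver, erythroid progenitors and early erythroblasts divide fast and leave the cell cycle as they mature.

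Promoters of 6 genes are printed to show these elements. Ube2c and Plk1 are the members with a called difference that involves genotype. Cdca8 and Cdc25b are the members with the smallest p and the largest difference by date code, and Ccnb2 and Mki67 are a cyclin B gene and the most abundant member. The choice of these 6 was made with their values known. Each line runs from 250 bases before to 50 bases after the annotated start, 5′ to 3′ on the gene's strand, from RefSeq on build GRCm38.p6. Capitals mark, on either strand, the CHR element in its form TTTGAA or in its form TTCGAA, and the box CCAAT. On the other strand the first of these reads TTCAAA, and the box reads ATTGG. The windows are chr2:164769679-164769978 (plus strand) for Ube2c, chr7:122159185-122159484 (plus strand) for Plk1, chr4:124936868-124937167 (minus strand) for Cdca8, chr2:131186698-131186997 (plus strand) for Cdc25b, chr9:70421505-70421804 (minus strand) for Ccnb2 and chr7:135716330-135716629 (minus strand) for Mki67.
Ube2c: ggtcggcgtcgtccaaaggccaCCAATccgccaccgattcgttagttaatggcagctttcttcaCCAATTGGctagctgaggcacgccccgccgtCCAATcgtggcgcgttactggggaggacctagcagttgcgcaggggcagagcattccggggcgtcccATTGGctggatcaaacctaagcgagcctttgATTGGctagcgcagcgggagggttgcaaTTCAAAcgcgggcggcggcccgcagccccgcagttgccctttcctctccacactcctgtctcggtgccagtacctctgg
Plk1: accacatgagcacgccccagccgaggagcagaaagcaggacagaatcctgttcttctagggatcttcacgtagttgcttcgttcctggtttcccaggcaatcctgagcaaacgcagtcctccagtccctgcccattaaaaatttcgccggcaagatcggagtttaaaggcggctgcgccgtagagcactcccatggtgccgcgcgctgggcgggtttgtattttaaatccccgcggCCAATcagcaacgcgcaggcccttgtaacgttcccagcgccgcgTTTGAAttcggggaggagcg
Cdca8: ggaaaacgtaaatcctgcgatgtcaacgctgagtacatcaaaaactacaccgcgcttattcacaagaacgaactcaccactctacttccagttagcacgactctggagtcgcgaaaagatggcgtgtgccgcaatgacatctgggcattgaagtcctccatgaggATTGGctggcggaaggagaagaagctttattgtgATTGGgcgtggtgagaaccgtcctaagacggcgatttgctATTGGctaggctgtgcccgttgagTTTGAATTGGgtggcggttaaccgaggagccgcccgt
Cdc25b: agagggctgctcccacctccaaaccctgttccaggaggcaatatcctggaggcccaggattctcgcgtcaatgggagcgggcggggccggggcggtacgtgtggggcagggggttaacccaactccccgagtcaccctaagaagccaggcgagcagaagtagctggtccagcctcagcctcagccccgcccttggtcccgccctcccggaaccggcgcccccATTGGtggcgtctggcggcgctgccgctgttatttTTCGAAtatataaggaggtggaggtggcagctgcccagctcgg
Ccnb2: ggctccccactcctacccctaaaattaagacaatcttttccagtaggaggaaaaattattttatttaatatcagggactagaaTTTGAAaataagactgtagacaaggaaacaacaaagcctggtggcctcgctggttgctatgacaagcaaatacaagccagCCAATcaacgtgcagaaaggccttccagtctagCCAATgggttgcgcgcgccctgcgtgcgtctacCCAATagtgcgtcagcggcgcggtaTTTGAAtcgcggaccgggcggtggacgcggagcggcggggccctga
Mki67: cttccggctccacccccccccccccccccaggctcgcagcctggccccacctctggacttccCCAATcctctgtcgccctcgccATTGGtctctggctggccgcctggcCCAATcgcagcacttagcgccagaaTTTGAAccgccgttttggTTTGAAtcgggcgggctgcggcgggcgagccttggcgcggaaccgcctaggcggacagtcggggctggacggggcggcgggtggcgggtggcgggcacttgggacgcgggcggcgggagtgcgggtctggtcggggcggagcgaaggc

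Ccnb2 showed the arrangement known from cyclin B promoters, with CCAAT beginning 87, 54 and 21 bases before the start and TTTGAA just after it. The window of Ccnb1, the other cyclin B gene among the members, held 2 CCAAT boxes but 0 matches to TTTGAA or TTCGAA. RefSeq windows were matched for 33 of the 38 genes, 35 windows in all. Of these windows, 28 (80%) held TTTGAA or TTCGAA on either strand, against 19.2% of all 32851 windows of the same length. CCAAT stood in 26 windows (74.3%), against 37.4% of all windows, and at least 2 copies of it in 17 (48.6%), against 11.7%. Both kinds of element occurred in 24 (68.6%), against 7.52%. In 1 member window, that of Cdca8, the 2 kinds of match shared bases. A match is a description of the letters and not a binding site. Windows for Cdc25c, Tpx2, Aurkb, Incenp and Kif20a were not analysed here.

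Gene counts per library were 33421125 and 43401474 in TAF10KO, 18008391 to 27280055 in TAF10HET, and 25248620 and 22821489 in WT. Values are given as CPM, counts scaled to library totals and TMM factors, in the order of the replicate numbers. The lowest count of any member in a library was 551, so no member was near 0. The share of counting error in the spread between embryos was not tested. Taf10 itself stood at 37.8 and 43.8 CPM in TAF10KO, at 78.1, 63.7 and 63 CPM in TAF10HET and at 72 and 96.5 CPM in WT (log2 difference of TAF10KO from WT -1.04, adjusted p = 0.0542). It was lower in both TAF10KO livers than in every other liver, although its difference missed the threshold. Reads from exons that the Cre does not delete, and from cells without the Cre, are included in these values. Xist was near 0 in TAF10HET replicate 1 and TAF10KO replicate 2, which are male, and high in the other 5 livers. The 2 TAF10KO livers thus differed in sex as well as in date code, while both WT livers had high Xist (1790 and 1640 CPM). A change between date codes in how TAF10KO compares with another genotype therefore cannot be told apart from sex. The erythroid markers Slc4a1 and Alas2 and the hepatocyte markers Alb and Afp were abundant in all 7 livers.

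Every member was expressed well above the typical gene. The median of the members' mean RPKM, a level per kilobase of exon, was 37.9, against 3.81 over all genes tested, and 38 of 38 members lay above that value. Mki67, the proliferation marker Ki-67 that coats mitotic chromosomes, was highest at a mean of 282 RPKM (219 to 346 over the 7 livers). Top2a, the topoisomerase that disentangles sister chromatids, followed at 118 RPKM (107 to 126). Ccnb2, cyclin B2, stood at 116 RPKM (96.2 to 134) and Ube2c, a ubiquitin-conjugating enzyme of the anaphase-promoting complex, at 112 RPKM (74.4 to 148), so the ranges of these neighbours overlapped. At the low end were Ttk, the checkpoint kinase Mps1, at 12.7 RPKM, Ndc80, a microtubule-binding kinetochore subunit, at 10.7 RPKM, and Cdc25c, a Cdk1-activating phosphatase, at 6.85 RPKM. Together the 38 genes took 0.907% to 1.22% of the counts of a library, and Mki67 made up 24.3% to 28.9% of their CPM.

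**Figure D1:**
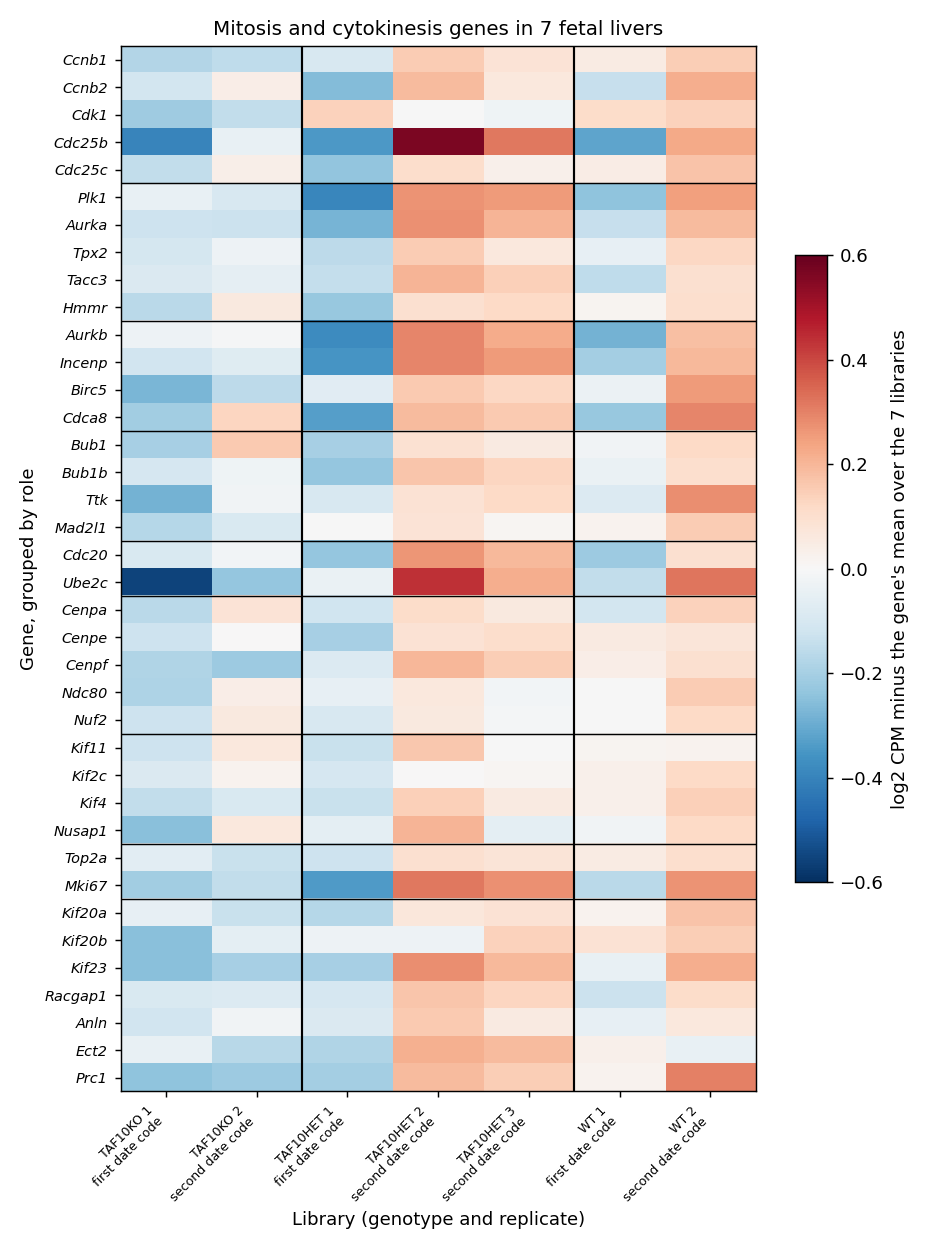
The log2 CPM of each of the 38 members, in rows by role, less its mean over the 7 livers, in columns by genotype (TAF10KO, TAF10HET, WT) and replicate. Both TAF10KO livers and TAF10HET replicate 1 and WT replicate 1 are mostly below the mean, and TAF10HET replicates 2 and 3 and WT replicate 2 mostly above it.

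Members tended to be lower in TAF10KO than in WT by small amounts, and in no member did the difference pass the test. Summed over the 38 genes, the level was 9267 and 9858 CPM in TAF10KO, 9072, 12209 and 11688 CPM in TAF10HET, and 9926 and 11881 CPM in WT. The TAF10KO liver was below the WT liver of its date code both times, but TAF10HET replicate 1 was lower still. In edgeR's quasi-likelihood test on genotype and date code, with Benjamini-Hochberg adjustment over all genes tested and a threshold of 0.05, 0 of 38 members passed between TAF10KO and WT (adjusted p from 0.0847 to 0.971), beside 0.608% of all genes tested. At an unadjusted p under 0.05 there were 11 members, beside 17.9% of all genes, and DESeq2 with the same terms called 3 (Birc5, Prc1 and Ube2c, all lower), beside 3.73% of all genes.

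The fitted log2 difference was below 0 in 36 of 38 members, beside 45.8% of all genes tested, and its median was -0.13 (from -0.48 for Ube2c to 0.039 for Aurkb, with SEs of 0.0693 to 0.159), beside 0.028 over all genes. Within the second date code the median was -0.19, with 36 members lower in TAF10KO, and within the first it was -0.12, with 29 lower. On both date codes 27 members were lower in TAF10KO than in WT, beside 30.4% of all genes tested. The 11 others were Aurka, Aurkb, Bub1, Ccnb2, Cdc20, Cdca8, Incenp, Kif11, Plk1, Racgap1 and Tacc3. Both TAF10KO livers lay below all 5 other livers for 8 members, Birc5, Ccnb1, Cdk1, Cenpf, Kif20b, Mad2l1, Prc1 and Ube2c, beside 7.18% of all genes. Without TAF10KO replicate 1 the median was -0.21, with 38 members below 0, beside a median of 0.017 over all genes. Without TAF10KO replicate 2 it was -0.12, with 30 members below 0 and 8 above, beside -0.013 over all genes. In each of these fits the TAF10KO liver that stays is a lone library assumed to vary like the other groups. TAF10KO replicate 2 is male by Xist, unlike TAF10KO replicate 1 and both WT livers. Without TAF10HET replicate 1, 4 members were called lower, beside 5.65% of all genes.

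**Figure D2:**
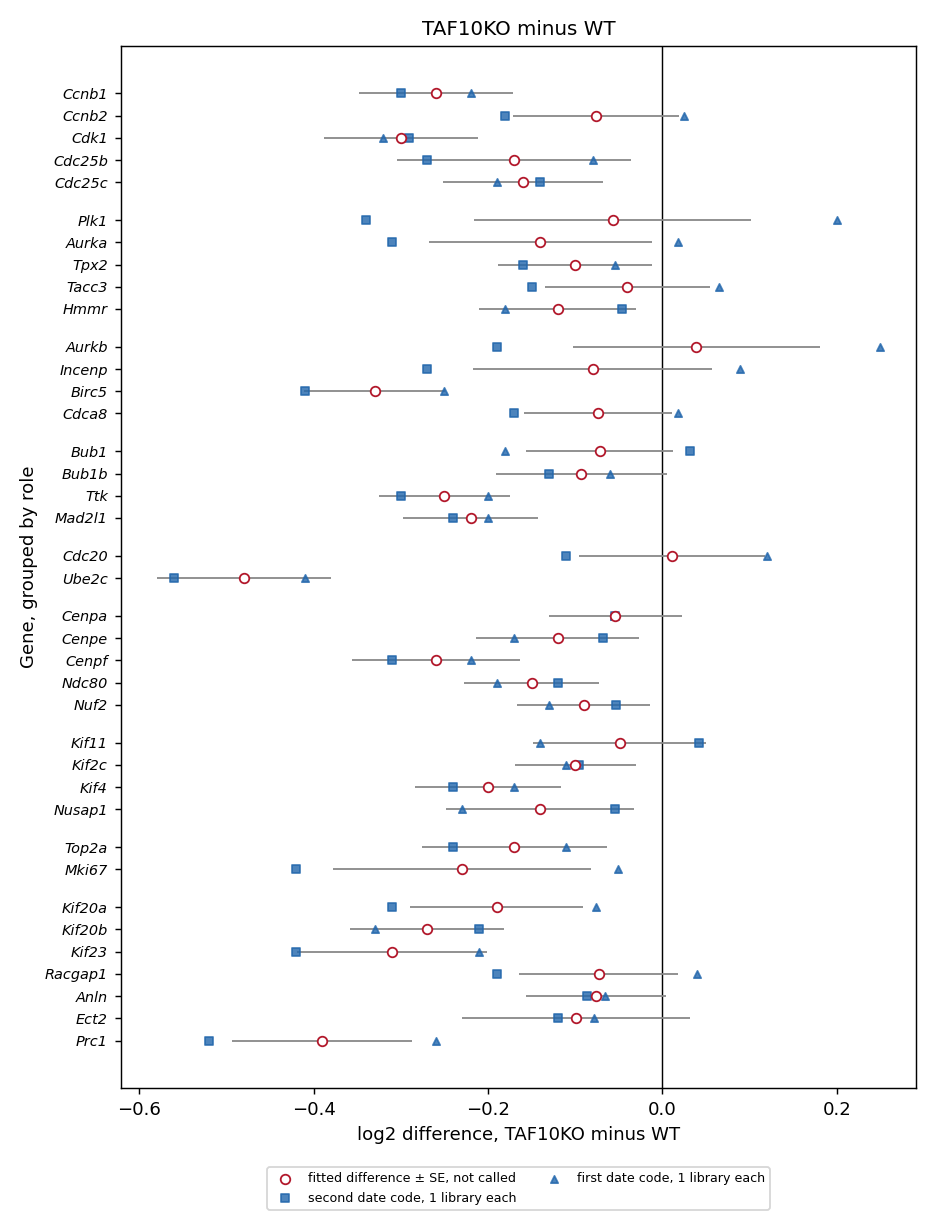
Log2 difference of TAF10KO from WT for each member, from the fit over all 7 livers with its SE as a bar, and within each date code, where each value rests on 1 liver per genotype. The fitted points lie left of 0 for 36 of 38 members, lowest for Ube2c at -0.48, and for Plk1 and Aurkb the points of the 2 date codes lie on either side of 0.

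Between TAF10KO and TAF10HET, Ube2c was the single member that passed the test. Ube2c (ENSMUSG00000001403, chromosome 2, 164769898 to 164778822 in mm10, plus strand) passes ubiquitin to cyclin B and securin on the anaphase-promoting complex. It stood at 193 and 242 CPM in TAF10KO, at 276, 385 and 330.0 CPM in TAF10HET, and at 256 and 355 CPM in WT. Both TAF10KO livers were below every other liver. It fell by 0.54 on the log2 scale against TAF10HET (SE 0.0932, adjusted p = 0.0413 in edgeR's quasi-likelihood test). Members called between TAF10KO and TAF10HET numbered 1 of 38, beside 1.61% of all genes tested. Against WT the difference was -0.48 (SE 0.0998, adjusted p = 0.0847), and -0.41 and -0.56 within the first and the second date code. Of the exon bases of Ube2c, 22.8% also lie in exons of Tnnc2 on the other strand, and the strand setting of the counting is not given in the sources used here.

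The call of Ube2c against TAF10HET ended when TAF10HET replicate 2 (adjusted p = 0.137), TAF10HET replicate 3 (0.125) or either WT liver (0.133 without replicate 1 and 0.155 without replicate 2) was left out, with fitted differences of -0.59 to -0.48 over all leave-outs. With genotype as the only term the difference was -0.60 and the adjusted p was 0.842, in a fit that called 0 of all 15800 genes. Over the members, the fitted difference of TAF10KO from TAF10HET was below 0 in 31 of 38, beside 49.5% of all genes, with a median of -0.093. Both TAF10KO livers were below all 3 TAF10HET livers for 8 members, the same 8 as above, beside 9.77% of all genes. The 2 date codes differed here. The median was -0.18 on the second, with 33 members lower in TAF10KO, and 0.01 on the first, with 17 lower. By Xist, TAF10KO was male and TAF10HET female on the second, with the reverse on the first. Date code and sex therefore cannot be told apart in this comparison. Over the fits that each left out a single liver, the members' median difference of TAF10KO from TAF10HET ran from -0.17 to -0.052. All 10 erythroid markers were also below 0 between TAF10KO and TAF10HET (median -0.35), and the medians were 0.67 for 7 neutrophil, 0.35 for 7 endothelial, 0.25 for 7 megakaryocyte, 0.18 for 7 stem and early progenitor, 0.1 for 8 hepatocyte, 0.077 for 7 mesenchymal and -0.39 for 6 macrophage markers. Of these lists 2 neutrophil and 2 endothelial markers rose and 1 macrophage marker fell, beside 1.15% of all genes that rose and 0.456% that fell. Their part in the members' differences was not tested.

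Against WT, TAF10HET livers showed no called member (0 of 38 in edgeR, beside 0.00633% of all genes tested). None had an unadjusted p under 0.05, beside 3.35% of all genes, and DESeq2 called 0. The fitted difference was below 0 in 28 members, beside 47.3% of all genes, with a median of -0.06 and a range of -0.18 to 0.13. The comparisons among the 3 genotypes share libraries and are not independent of each other.

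More members passed the test by date code than by genotype. From the second date code relative to the first, with genotype in the fit, 18 of 38 members rose and 0 fell, beside 18.7% of all genes tested that rose and 22.7% that fell (41.4% in either direction). The fitted difference was above 0 in 37 members, with Cdk1 (-0.033) as the exception, beside 48.2% of all genes below 0, and its median was 0.21, beside 0.019 over all genes. All 4 livers of the second date code lay above all 3 of the first for 16 members, beside 18.8% of all genes. The number that rose was 7 with upper-quartile scaling, with a median of 0.13, beside 37.3% of all genes called in either direction. It was 7 without TAF10HET replicate 1 (beside 33% of all genes), 5 without TAF10HET replicate 2 (31.7%) or TAF10HET replicate 3 (29%), and 2 (Cdc25b and Cdca8) without WT replicate 1 (19.6%) or WT replicate 2 (19.3%).

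**Figure D3:**
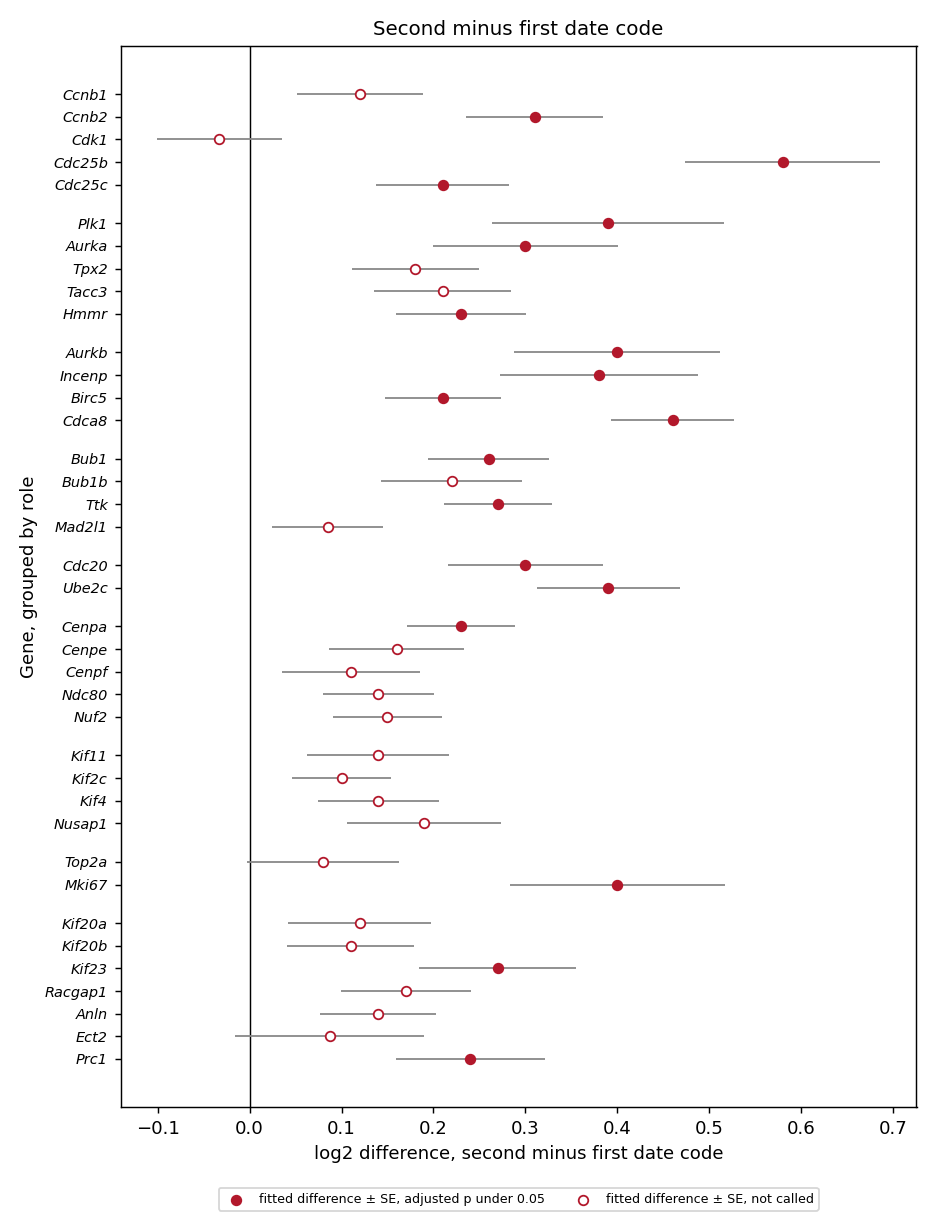
Fitted log2 difference of the second from the first date code for each member, with its SE as a bar and members that passed the test marked. The points run from -0.033 for Cdk1 to 0.58 for Cdc25b, and 18 of 38 passed, all higher on the second date code.

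By role, entry into mitosis is led by Cdk1, its cyclins and the Cdc25 phosphatases. Cdk1 (ENSMUSG00000019942, chromosome 10, 69335146 to 69352938, minus strand), the kinase itself, had 169 and 177 CPM in TAF10KO, 216, 196 and 193 CPM in TAF10HET, and 212 and 216 CPM in WT. Both TAF10KO livers were below the other 5, at a log2 difference from WT of -0.30 (SE 0.0881, adjusted p = 0.155), and the date codes overlapped. Cdc25b, the phosphatase that first activates Cdk1, had 282 and 359.7 CPM in TAF10KO, 293, 549 and 462 CPM in TAF10HET, and 298 and 435 CPM in WT. The 4 livers of the second date code were above the 3 of the first (log2 0.58, SE 0.106, adjusted p = 0.00491), and TAF10KO was the lowest genotype on each. Ccnb2 had 163 and 181 CPM in TAF10KO, 147, 201 and 184 CPM in TAF10HET, and 159.9 and 205 CPM in WT, and it rose by date code (0.31, adjusted p = 0.015). Its paralogue Ccnb1 differed by -0.26 between TAF10KO and WT (adjusted p = 0.2) and by 0.12 between date codes (0.192). Cdc25c differed by -0.16 between genotypes (0.39) and rose by 0.21 by date code (0.0487).

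Plk1 (ENSMUSG00000030867, chromosome 7, 122159439 to 122169873, plus strand) encodes the Polo kinase of spindle assembly and mitotic exit. It was the only member whose difference of TAF10KO from WT had a called change between date codes. It had 151 and 146 CPM in TAF10KO, 119, 188 and 186 CPM in TAF10HET, and 132 and 185 CPM in WT. On the second date code TAF10KO was the lowest liver by far, and on the first it was the highest. Relative to WT, TAF10KO differed by -0.34 on the log2 scale on the second and by 0.20 on the first. Their difference, -0.54 (SE 0.101), had an adjusted p of 0.044 in edgeR's test of the interaction, beside 1.15% of all genes called. In the same fit other members came near it without being called. These were Aurkb at -0.44 (adjusted p = 0.105), Mki67 at -0.37 (0.149), Incenp at -0.36 (0.135) and Aurka at -0.33 (0.179). The largest value above 0 in that fit was 0.21 for Bub1 (0.381). That fit has 1 residual degree of freedom, from TAF10HET replicates 2 and 3. TAF10KO replicate 2 is male, unlike TAF10KO replicate 1 and both WT livers, so date code and sex cannot be told apart here. The call ended under other settings: the adjusted p was 0.0677 under upper-quartile scaling, 0.0795 under median-of-ratios scaling, 0.0541 with non-robust dispersions, 0.0504 without TAF10HET replicate 1 and 1 in DESeq2.

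Among the spindle partners of Plk1 and Aurora A, Hmmr, a microtubule-associated protein of spindle poles, had 239.5 and 279 CPM in TAF10KO, 229, 287 and 291 CPM in TAF10HET, and 271 and 288 CPM in WT. It rose by date code (0.23, adjusted p = 0.0367), as did Aurka, the Aurora A kinase (0.30, 0.0454), and Plk1 (0.39, 0.0426). Tpx2, which activates Aurora A on microtubules, stood at 0.18 (0.0716), and Tacc3, its substrate on the spindle, at 0.21 (0.055). Between TAF10KO and WT these 5 genes lay between -0.14 and -0.04, with adjusted p from 0.536 to 0.885.

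All 4 genes of the chromosomal passenger complex, which corrects kinetochore attachments and then directs cytokinesis, rose by date code. Cdca8 (ENSMUSG00000028873, chromosome 4, 124918465 to 124939311, minus strand), the targeting subunit borealin, had 159 and 201 CPM in TAF10KO, 146, 210.0 and 205 CPM in TAF10HET, and 157 and 225 CPM in WT. The date codes did not overlap, and the difference (log2 0.46, SE 0.0665, adjusted p = 0.00191) was the one with the smallest p among the members. Aurkb, the kinase of the complex, had 119 and 121 CPM in TAF10KO, 93.6, 149 and 142 CPM in TAF10HET, and 99.9 and 138 CPM in WT. Incenp, its scaffold, had 225 and 232 CPM in TAF10KO, 191, 299 and 291 CPM in TAF10HET, and 212 and 279 CPM in WT. For both genes the TAF10KO livers lay between the low livers of the first date code and the high ones of the second, and they rose by 0.40 (adjusted p = 0.0259) and 0.38 (0.0276) by date code. Birc5, the subunit survivin, had 175 and 189.8 CPM in TAF10KO, 202, 236 and 231 CPM in TAF10HET, and 207 and 253 CPM in WT. Both TAF10KO livers were below the other 5, with a log2 difference from WT of -0.33 (SE 0.0813, adjusted p = 0.116), and Birc5 rose by 0.21 by date code (0.035).

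**Figure D4:**
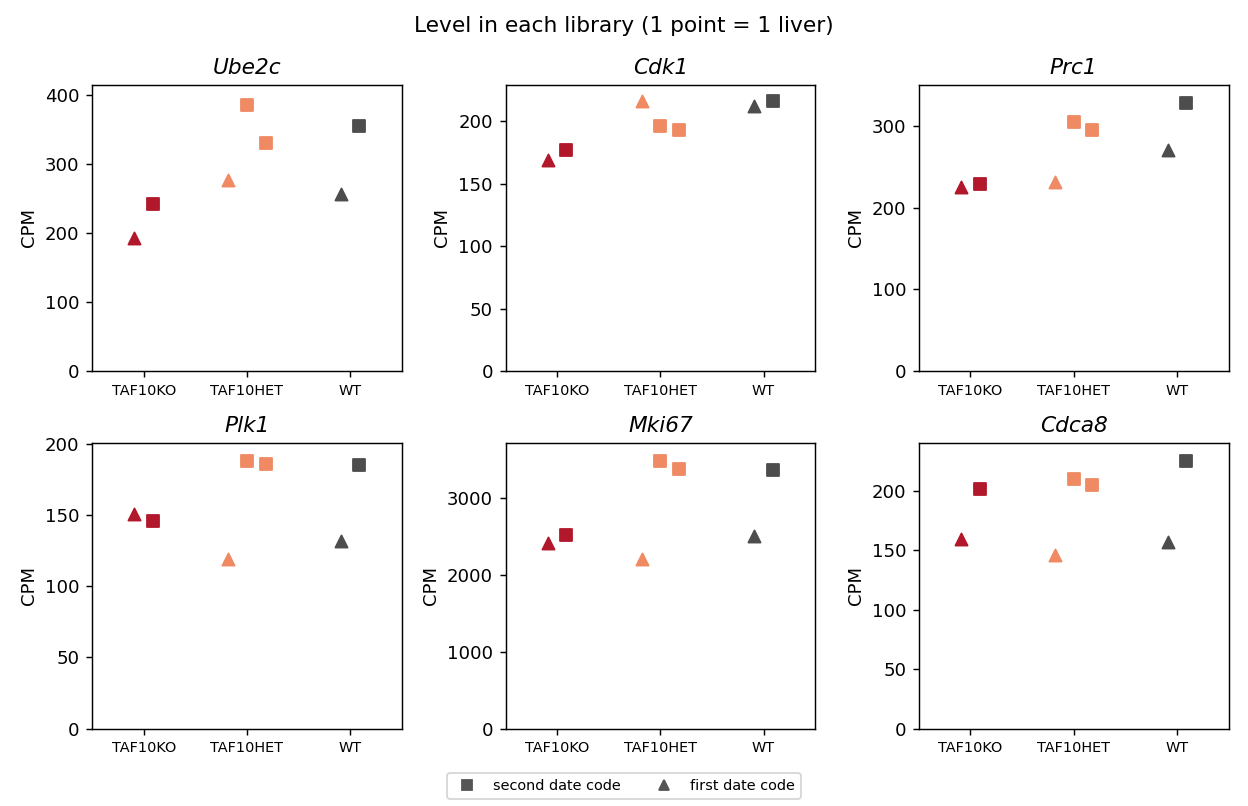
CPM of 6 members in each of the 7 livers, by genotype (TAF10KO, TAF10HET, WT), with squares for the second date code and triangles for the first. Ube2c is lowest in the 2 TAF10KO livers (193 and 242 CPM), and Plk1 spans less in TAF10KO (146 and 151 CPM) than in TAF10HET (119 to 188 CPM) or WT (132 and 185 CPM).

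The spindle checkpoint delays anaphase until every kinetochore is attached. Ttk, whose kinase activity starts the signal, had 51 and 61.1 CPM in TAF10KO, 58.1, 65.9 and 67.4 CPM in TAF10HET, and 58.7 and 75.2 CPM in WT. TAF10KO was the lowest genotype on each date code (log2 difference from WT -0.25, SE 0.0748, adjusted p = 0.161), and Ttk rose by 0.27 by date code (0.0104). Bub1, a kinase of the outer kinetochore, had 129 and 165 CPM in TAF10KO, 129, 158 and 154 CPM in TAF10HET, and 146 and 161 CPM in WT. It rose by 0.26 by date code (0.0185) and was -0.072 between TAF10KO and WT (0.69). Bub1b, the BubR1 component of the inhibitor of the anaphase-promoting complex, had 193 and 203 CPM in TAF10KO, 176, 232 and 226 CPM in TAF10HET, and 201 and 222 CPM in WT, and its date difference of 0.22 missed the threshold (0.0553) although the date codes did not overlap. Mad2l1, the Mad2 protein that binds Cdc20, was below the other 5 livers in both TAF10KO livers, at -0.22 from WT (0.211). Cdc20, the activator that this checkpoint holds back, had 164 and 173 CPM in TAF10KO, 149, 210.0 and 200.0 CPM in TAF10HET, and 150.2 and 187 CPM in WT. It rose by date code (0.30, adjusted p = 0.0254), and its difference between TAF10KO and WT was 0.011 (0.971). Cdc20 and Ube2c, both of which work on the anaphase-promoting complex, thus had unlike values between genotypes. The difference between them was not tested.

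Centromere and kinetochore genes build the site where chromosomes attach to the spindle. Cenpa, the histone that marks centromeres, had 129 and 153 CPM in TAF10KO, 133, 156 and 150.2 CPM in TAF10HET, and 134 and 159 CPM in WT, and it was the 1 gene of these 5 that rose by date code (0.23, adjusted p = 0.0182). Cenpf, a large protein of the outer kinetochore, had 199 and 194 CPM in TAF10KO, 213, 259 and 250.3 CPM in TAF10HET, and 232 and 241 CPM in WT. Both TAF10KO livers were below all others, at -0.26 from WT (SE 0.0962, adjusted p = 0.223). Cenpe, the kinetochore motor that carries chromosomes to the spindle equator, had 221 and 241 CPM in TAF10KO, 209.5, 255 and 259 CPM in TAF10HET, and 249.7 and 253 CPM in WT. The TAF10KO livers were below both WT livers, at a difference of -0.12 (0.526), and the TAF10HET livers spanned the range of the others. Ndc80 and Nuf2, partners in the complex that grips microtubules, stood at -0.15 and -0.09.

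None of the 4 spindle motors and microtubule binders passed in any comparison. Kif4 (X chromosome), a chromosome-bound kinesin, had 108 and 112 CPM in TAF10KO, 109, 132 and 124 CPM in TAF10HET, and 122 and 132 CPM in WT, a log2 difference of -0.20 between TAF10KO and WT (SE 0.0839, adjusted p = 0.273). Nusap1, which bundles spindle microtubules, had 193 and 239.8 CPM in TAF10KO, 220.4, 264 and 220.3 CPM in TAF10HET, and 226 and 249 CPM in WT, with all 3 genotypes overlapping. Kif11, the motor that separates spindle poles, and Kif2c, which depolymerises microtubules, stood at -0.049 and -0.10. Kif2c was the steadiest member, with a ratio of 1.16 between its highest and lowest liver, and Ube2c the most variable, with 1.99.

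Of the chromosome proteins, Mki67 (ENSMUSG00000031004, chromosome 7, 135689784 to 135716361, minus strand) had 2416 and 2521 CPM in TAF10KO, 2207, 3484 and 3380 CPM in TAF10HET, and 2502 and 3370 CPM in WT. The date codes did not overlap (log2 0.40, SE 0.117, adjusted p = 0.0293), but TAF10KO replicate 2 lay close to the livers of the first date code. Its difference of TAF10KO from WT was -0.42 on the second date code and -0.051 on the first, and -0.23 in the fit (SE 0.148, adjusted p = 0.458). Top2a had 1013 and 965 CPM in TAF10KO, 971, 1134 and 1118 CPM in TAF10HET, and 1096 and 1138 CPM in WT, at -0.17 between TAF10KO and WT (0.424) and 0.08 between date codes (0.461). Without Mki67 the members summed to 6852 and 7337 CPM in TAF10KO, to 6865, 8725 and 8309 CPM in TAF10HET and to 7424 and 8511 CPM in WT, so the order of the livers did not rest on Mki67 alone, except that TAF10KO replicate 1 was then the lowest and not TAF10HET replicate 1.

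All 7 genes of the midzone and cleavage furrow had fitted differences below 0 between TAF10KO and WT, from -0.39 to -0.073, and 0 passed. Prc1 (ENSMUSG00000038943, chromosome 7, 80294450 to 80316259, plus strand), which crosslinks the antiparallel microtubules of the midzone, had 226 and 229.8 CPM in TAF10KO, 232, 305 and 296 CPM in TAF10HET, and 271 and 329 CPM in WT. Both TAF10KO livers were below all others, at -0.39 from WT (SE 0.103, adjusted p = 0.137). Prc1 rose by date code (0.24, 0.0489), as did Kif23, a kinesin of centralspindlin (0.27, 0.0402). Kif23 stood at -0.31 between TAF10KO and WT (0.214). Racgap1, its partner in centralspindlin, stood at -0.073, Ect2, the activator of RhoA at the furrow, at -0.099, and Anln, the scaffold anillin, at -0.076. The midzone kinesins Kif20a and Kif20b stood at -0.19 and -0.27. Of the exon bases of Kif20a, 29.3% lie in exons of another gene, the largest such share among the members, and 26 of the 38 members share none.

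Other genes of the cell cycle were compared by lists. Among 64 other mitosis genes, the median difference of TAF10KO from WT was -0.13, and 51 were below 0, beside 45.8% of all genes. DESeq2 called 5 lower, beside 3.73% of all genes called in either direction. In edgeR 0 passed and 19 had an unadjusted p under 0.05, beside 17.9% of all genes. The smallest p-values were those of Spc25, a partner of Ndc80 (-0.39, adjusted p = 0.0893), and Melk, a mitotic kinase (-0.34, 0.0922). By date code 30 of the 64 rose and 1 fell, beside 18.7% and 22.7% of all genes, with a median of 0.24. Spc24, the partner of Spc25 (0.47, 0.00179), the condensin subunits Ncaph2 (0.38, 0.00703) and Ncapd2 (0.47, 0.00829), the centromere protein Cenpw (0.49, 0.00719) and the spindle protein Dlgap5 (0.38, 0.00814) rose. Cep55, a scaffold of abscission, fell by 0.65 on the log2 scale (0.0046).

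Among 15 regulators of mitotic transcription the median difference of TAF10KO from WT was -0.12, 13 were below 0 and 0 passed in edgeR or DESeq2. Nfyb, a subunit of NF-Y, stood at -0.22 (adjusted p = 0.212) and Lin9, of the MuvB core, at -0.19 (0.299). By date code 4 rose, beside 18.7% of all genes. They were Lin37, also of MuvB (0.57, 0.00367), the pocket protein gene Rbl2 (0.35, 0.0112), Mybl2, which encodes B-Myb (0.52, 0.0275), and E2f4 (0.48, 0.0338).

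In 40 genes of DNA replication the median difference of TAF10KO from WT was -0.21, and 37 were below 0, beside 45.8% of all genes. DESeq2 called 7 lower, beside 3.73% of all genes called in either direction. In edgeR 0 passed and 17 had an unadjusted p under 0.05, beside 17.9% of all genes. Pole2, a subunit of polymerase epsilon, stood at -0.41 (adjusted p = 0.0633). By date code 20 rose and 1 fell, beside 18.7% and 22.7% of all genes, with a median of 0.25. Those that rose were led by the flap endonuclease Fen1 (0.75, 0.00389), the primase subunit Prim2 (0.40, 0.00451), the dUTPase Dut (0.35, 0.00584) and Rrm2, of ribonucleotide reductase (0.58, 0.00921). Of 15 cyclins of G1 and S phase and CDK inhibitors 14 were tested, with a median of -0.066 between TAF10KO and WT. The differences ran both ways, with 5 above 0 and 9 below 0. In edgeR 7 had an unadjusted p under 0.05, beside 17.9% of all genes. DESeq2 called 2 higher and 3 lower, beside 3.73% of all genes called in either direction. Ccne2, cyclin E2 of the start of S phase, had 66.9 and 80.1 CPM in TAF10KO, 103, 126 and 131 CPM in TAF10HET, and 104 and 143 CPM in WT. It was the 1 gene of these lists that fell between TAF10KO and WT in edgeR (-0.73, SE 0.0827, adjusted p = 0.0204), beside 0.127% of all genes. It also fell between TAF10KO and TAF10HET (-0.65, 0.0142), together with Cdkn2d, an inhibitor of Cdk4 and Cdk6 (-0.68, 0.0369), beside 0.456% of all genes. By date code 4 of the 14 rose and 3 fell, beside 18.7% and 22.7% of all genes, among them Cdkn1c, the inhibitor p57, which fell by 1.41 (0.000259), and Ccnd1, cyclin D1, which fell by 0.55 (0.00296).

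**Figure D5:**
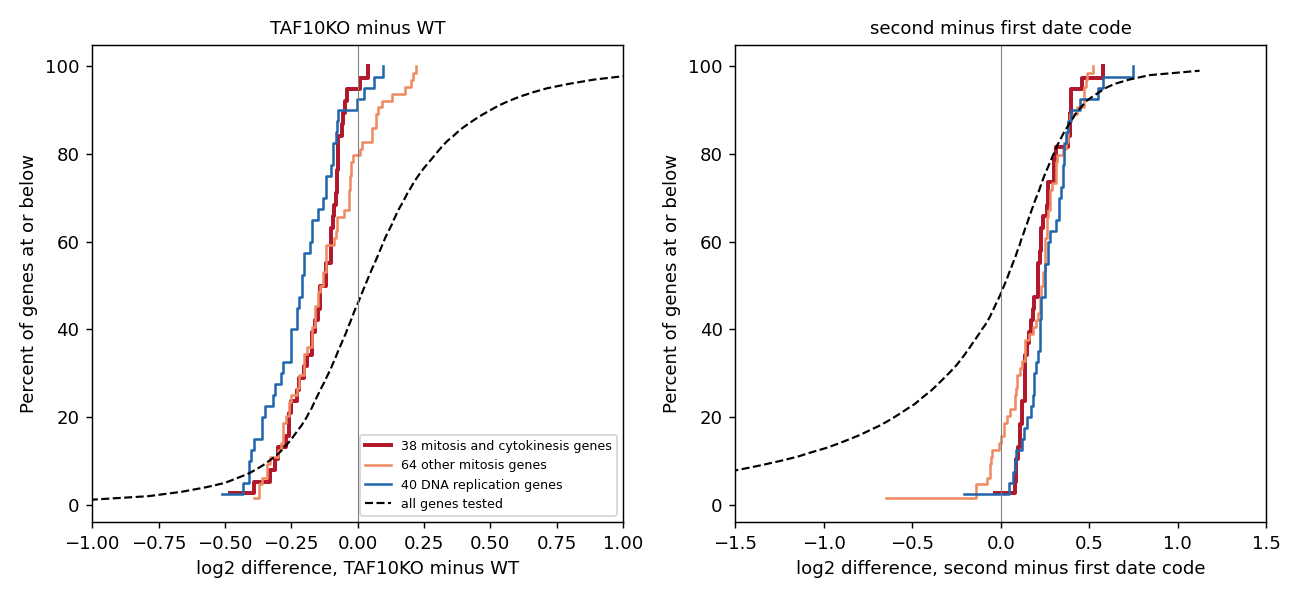
Cumulative share of genes against fitted log2 difference for the members, the 64 other mitosis genes, the 40 replication genes and all 15800 genes tested, for TAF10KO against WT and for the second against the first date code. At its middle the member curve lies left of that of all genes for TAF10KO against WT (medians -0.13 and 0.028) and right of it for the date code (medians 0.21 and 0.019), and it is steeper, so the curves cross near its ends.

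Markers of the cell types that the liver holds were examined in the same comparisons. In edgeR they were called mostly by date code, and 1 marker passed between TAF10KO and WT, beside 0.608% of all genes. By date code 18.7% of all genes tested rose and 22.7% fell, the background for the counts of markers given here. The 10 erythroid markers summed to 7721 and 8990 CPM in TAF10KO, to 8026, 14433 and 12493 CPM in TAF10HET, and to 8898 and 12431 CPM in WT. All 10 were below 0 between TAF10KO and WT, with a median of -0.30. In edgeR 0 passed and 5 had an unadjusted p under 0.05, beside 17.9% of all genes. DESeq2 called 3, beside 3.73% of all genes. By date code 9 of the 10 rose, with a median of 0.47. The 7 stellate and mesenchymal markers, led by Col1a1, Col1a2 and Col3a1, summed to 327, 203, 206 and 183 CPM on the second date code and to 1572, 2462 and 1344 CPM on the first, and all 7 fell (median -2.71). The 7 endothelial markers summed to 158 to 189.7 CPM on the second date code and 307 to 429 CPM on the first, and all 7 fell (median -0.99). The 8 hepatocyte markers summed to 12313 to 16041 CPM on the second and 17225 to 19686 CPM on the first, and 6 fell (median -0.42). The 6 macrophage markers tested had a median of -0.44 by date code, and 5 fell. Markers of other blood cells were higher on the second date code. The median was 0.52 for the neutrophil list, of which 3 rose, 0.43 for the stem and early progenitor list, of which 4 rose and 1 fell, and 0.20 for the megakaryocyte list, of which 1 rose.

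Between TAF10KO and WT the medians were 0.69 for 7 neutrophil markers, 0.56 for the mesenchymal, 0.40 for the endothelial, 0.24 for 7 megakaryocyte, 0.12 for 7 stem and early progenitor, -0.17 for the hepatocyte and -0.27 for 6 macrophage markers. The single marker among them that passed was an endothelial one, which rose, beside 0.481% of all genes tested that rose. Neutrophil markers summed to 405 and 703 CPM in TAF10KO, to 269, 461 and 351 CPM in TAF10HET, and to 320.0 and 426 CPM in WT. Megakaryocyte markers summed to 801 and 960.4 CPM in TAF10KO, 638 to 739 CPM in TAF10HET, and 756 and 683 CPM in WT. Macrophage markers summed to 101 to 164 CPM in TAF10KO, 128 to 191 CPM in TAF10HET and 117 to 194 CPM in WT, and stem and early progenitor markers to 180.0 to 267 CPM over all livers. No marker list was at 0 in any liver. The part of cell composition in the differences of the members was not tested.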

How the data were processed

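The authors' deposited files hold whole-number read counts per Ensembl gene for 7 libraries, with no normalisation. The submitters' processing notes name TopHat2 2.0.8 with the build mm10, and DESeq2. No source used here gives the counting program, annotation or strand setting. Summary lines that name no gene were left out: no feature (6.81% to 10.1% of counted reads), ambiguous (3.98% to 5.94%) and not unique (14.1% to 22.2%). Reads shared with near-identical copies are therefore uncertain, which bears on Ccnb1, Ccnb2 and Kif4, whose pseudogenes are annotated. GENCODE M21, also on mm10, gave symbols, positions and exon lengths for 37607 of 39017 identifiers, and the other 1410 held 0.212% of counts. Gene counts were 18008391 to 43401474 per library, and by a chi-square comparison no library was a copy of another in its group. The labels name single embryos. Only the TAF10HET livers of the second date code share both genotype and date code. The p-values therefore rest partly on the spread between like embryos and partly on how genotype differences vary between date codes. That variation cannot be told apart from sex or, in TAF10HET, from allele type. Embryos within a date code are not replicates of that code, so p-values by date code do not measure the spread between dates.

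The members, gene lists and tests were chosen with earlier results of these data known. Genes were fitted in R 4.3.3 with edgeR 4.0.16 (filterByExpr by group, TMM factors, robust quasi-likelihood F test, two-sided) on all 7 libraries, with genotype and date code as terms and 3 residual degrees of freedom. P-values were adjusted over 15800 genes by Benjamini-Hochberg, with a threshold of 0.05. The SE is the absolute log2 difference divided by the square root of F. CPM and RPKM were computed here, and log2 CPM used a prior count of 2. Differences within a date code are of log2 CPM, and those with TAF10HET use the mean of its livers there.

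The date code was kept as a block after a check of the deviations of libraries from their group means. These correlated across genes at 0.4 to 0.74 in 8 pairs with the same code and at -0.74 to -0.4 in 8 pairs with different codes. The labels do not say what the code marks. With 2 libraries in a group, their deviations are mirror images by construction, and genes are not independent replicates. The biological coefficient of variation was 13.4% with the block and 33.9% without it.

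Values in every library are given for members called in a comparison (up to 12 of smallest p) and, in each of 9 roles, for the member with the smallest p between TAF10KO and WT and the one with the highest RPKM. From the 4 other lists, called genes (up to 6 a comparison) or the 2 of smallest p were named. A gene that this rule names from a list is not reported here. Other genes named were chosen after their values were seen. Alternatives were upper-quartile and median-of-ratios factors, 11 globin genes left out of totals, DESeq2 1.42.0, no filter, 5 CPM in 2 libraries, a non-robust fit, no block, only the groups compared, and each library left out. The edgeR steps were tested on simulated data. Promoter windows came from RefSeq.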

Additional observations from a re-analysis of the deposited data

Results flagged for a closer look

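In the 4 livers of the second date code, 4 members had 1 liver far from the other 3, by a gap to its neighbour, as a share of the range, above Dixon's 95% critical value. Plk1 had its lowest liver in TAF10KO replicate 2, with a share of 0.929, at 146 CPM in that TAF10KO liver, against 188 and 186 CPM in TAF10HET replicates 2 and 3 and 185 CPM in WT replicate 2. Top2a (0.884) and Mki67 (0.882) were also lowest in TAF10KO replicate 2, at 965 and 2521 CPM. Kif2c had its highest liver in WT replicate 2 (0.844), at 88 CPM, against 82.3 CPM in TAF10KO replicate 2 and 81.2 and 81.7 CPM in the TAF10HET livers. These 4 livers hold all 3 genotypes, and such a gap is expected by chance in about 5% of the 39 sets examined. Groups of 2 or 3 livers were not examined.

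The difference of TAF10KO from WT in Plk1 differed between the date codes in edgeR's test of the interaction, by -0.54 on the log2 scale (SE 0.101, adjusted p = 0.044), with -0.34 on the second date code and 0.20 on the first. Each of these 2 values rests on 1 liver per genotype. TAF10KO replicate 2 is male, unlike TAF10KO replicate 1 and both WT livers, so date code and sex cannot be told apart. The call ended in 5 of 8 alternatives, with an adjusted p of 0.0795 under median-of-ratios scaling, 0.0677 under upper-quartile scaling, 0.0541 with non-robust dispersions, 0.0504 without TAF10HET replicate 1 and 1 in DESeq2.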

How the results depend on the processing

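Counts of called members moved more than their direction. Between TAF10KO and WT, where 0 members were called, DESeq2 called 3, no filter on low counts 2 (beside 5.09% of all genes) and only the groups compared 1 (3.52%), and leaving out single livers gave 0 to 9, with medians of -0.21 to -0.12. The count was 0 without the replicate block as well, in a fit that called 0 of all 15800 genes and so could call no member. Between TAF10KO and TAF10HET, where 1 was called, DESeq2 called 2 (beside 4.37% of all genes), and only the groups compared gave 0 (0.166%). Without the replicate block there were 0 in edgeR, beside 0 of all 15800 genes. DESeq2 without the block, an alternative added after seeing the data, also gave 0, beside 0.899% of all genes. Leave-outs gave 0 to 8, with medians of -0.17 to -0.052. For TAF10HET against WT leave-outs gave 0 to 0 and medians of -0.083 to -0.0066. By date code 18 were called, beside 41.4% of all genes in either direction. Upper-quartile factors gave 7 (median 0.13, beside 37.3% of all genes) and the filter of 5 CPM gave 11 (beside 41.9%). Leaving out 1 TAF10HET liver gave 5 or 7, beside 29% to 33% of all genes. Over all leave-outs the medians were 0.15 to 0.22. Members with a called interaction numbered 0 with median-of-ratios factors, upper-quartile factors, DESeq2, non-robust dispersions or without TAF10HET replicate 1. With no filter they numbered 2, beside 714 of 27480 genes.

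Between TAF10KO and WT, Cdc20 (0.011) turned to -0.001 without the replicate block and -0.0056 with DESeq2 without it. Over the leave-outs, Aurkb ran from -0.23 to 0.26, Cdc20 from -0.15 to 0.13, Incenp from -0.33 to 0.12 and Plk1 from -0.38 to 0.21. The cause of these changes was not tested. Fits without a library have fewer residual degrees of freedom. For the 22 members named by rule, 349 recomputed values between TAF10KO and WT kept direction and side of the threshold, 16 passed it and 9 turned, and by date code 132 kept their call and 48 lost it. The 7 livers limit what genotype differences of this size can be called.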
